A study of Homo sapiens with 5 samples.

Results

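The 8 human miRNA names here were listed as derived from Alu or other interspersed repeats: hsa-miR-619-5p, hsa-miR-5096, hsa-miR-1273g-3p, hsa-miR-1972, hsa-miR-7851-3p, hsa-miR-5585-5p, hsa-miR-1285-3p and hsa-miR-1285-5p. They are 8 of the 2565 human miRNA names in the count tables, and all 8 were found by name. They were chosen by name with their counts in detached and attached libraries already known, so the difference between those groups is given as a description with no test. The detached group is MCF10A, an immortalized, non-tumorigenic mammary epithelial line, kept for 24 h in dishes whose 2% poly-HEMA coating prevents adhesion (2 libraries). The attached group is the same line on uncoated plastic (3 libraries), with a time label of 0 h but a series text that gives 24 h for both groups, so its time of sampling is unclear. Per the labels, both groups grew in DMEM/F12 with horse serum, epidermal growth factor, insulin, cholera toxin and hydrocortisone, and RNAs of 18 to 24 nt were cut from a gel before ligation. The labels do not say whether the libraries came from separate cultures, so the spread between them may be technical.

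Alu elements are short interspersed repeats that arose from 7SL RNA, the RNA of the signal recognition particle, and they fill introns and untranslated regions throughout primate genomes. A miRNA hairpin can form where a stretch of such a repeat folds back on itself or where inverted copies lie side by side. Its mature sequence then resembles many other places in the genome and in transcripts, and a short read under such a name need not come from the annotated hairpin. Sequences of this kind are also transcribed within the introns of many genes and, at low levels, by RNA polymerase III from Alu elements themselves. How the authors' counting treated reads that match several places is not given in the sources used here, so reads of the hairpin and reads of other copies cannot be told apart.

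The mature sequences of 4 of the 8 names were found in the RefSeq table (GRCh38.p14), and they are shown to let their seeds be compared. Capitals mark the seed, bases 2 to 8, and all 4 are 22 nt long.
hsa-miR-1972: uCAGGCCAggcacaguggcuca
hsa-miR-7851-3p: uACCUGGGagacugagguugga
hsa-miR-5585-5p: uGAAGUACcagcuacucgagag
hsa-miR-1285-3p: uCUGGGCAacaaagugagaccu
The 4 seeds differ from each other. The seed of miR-1285-3p is shared with 3 other names in the tables, miR-6860, miR-5189-5p and miR-3187-5p, which had 2, 1 and 29 counts over all 5 libraries. The seeds of miR-1972, miR-7851-3p and miR-5585-5p were shared with no other name that has a RefSeq entry.

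The label of repeat origin was checked by sliding mature sequences along RN7SL1, a 299-base gene of 7SL RNA (GENCODE 29, chr14:49586580-49586878, plus strand), without gaps and on both strands. miR-7851-3p and miR-1285-3p each matched 18 of 22 bases on the sense strand. Of 2253 human names with a RefSeq sequence, 5 matched at least that well, and the median name matched 55.6% of its bases. miR-1972 matched 13 of 22 bases (59.1%), with its first 4 bases ahead of the RNA's start, which 31.6% of all names equalled or passed. Those 4 bases were scored as mismatches. All 13 matches lay in the 18 bases that overlapped the RNA, a share that was not ranked against other names. Matches are given here for 3 of the 4 names with a sequence, so they do not show how many of the 4 resemble 7SL RNA. The names without a sequence, miR-619-5p, miR-5096, miR-1273g-3p and miR-1285-5p, were not checked. Likeness to 7SL RNA also cannot test origin from repeats other than Alu.

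Exact copies of the mature sequences were counted in annotated transcripts other than miRNAs (56840 genes). miR-1972 occurred in 10 genes, 5 in sense and 5 in antisense, and 3 of the 2253 names occurred in 10 or more. miR-1285-3p occurred in 2 genes, and miR-7851-3p and miR-5585-5p in 0, like 78.7% of all names. Introns were not searched.

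All hairpins but 1 lie in introns. On the hg38 assembly (GENCODE 29), MIR619 (chr12:108836908-108837006) lies in SSH1, which encodes a cofilin phosphatase, MIR5096 (chr4:78820752-78820821) in BMP2K, a protein kinase gene, and MIR1273G (chr1:52940314-52940413) in SCP2, the sterol carrier protein gene. MIR5585 (chr1:32086949-32087007) lies in TMEM39B and MIR7851 (chr12:42323700-42323859) in ZCRB1, a gene for a minor-spliceosome protein, with PPHLN1 on the opposite strand. These 5 share the strand of the named host. miR-1285 has a pair of hairpins, MIR1285-1 (chr7:92204015-92204098) in an intron of KRIT1, a cerebral cavernous malformation gene, and MIR1285-2 (chr2:70252918-70253005) outside other annotated genes. miR-1972 also has a pair, MIR1972-1 (chr16:15010321-15010397) in PDXDC1 and MIR1972-2 (chr16:70030346-70030422) in its pseudogene PDXDC2P, both on the strand opposite to those genes. The RNA of these host genes was not measured in these libraries.

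Depth was 15793173 and 10533740 human miRNA counts in detached and 12153778, 8805009 and 10321861 in attached libraries, which held 97.1% to 98.7% of all named counts. Levels below are CPM, counts per 1000000 human miRNA counts, and 3 counts correspond to 0.190 to 0.341 CPM. Epithelial marker miRNAs (6 of 6 detected) summed to 462562 and 471063 CPM in detached and 434209 to 517329 CPM in attached libraries. Most of that sum was miR-21-5p, and single markers went opposite ways. miR-200c-3p and miR-200b-3p lay higher in both detached libraries (1.95 and 2.30 times the attached mean, 1.39 and 1.78 times without attached replicate 2). miR-141-3p lay lower in both (0.770 times, and 0.820 times without that replicate). miR-205-5p, miR-31-5p and miR-21-5p overlapped between the groups. Without attached replicate 2, miR-31-5p lay lower in both detached libraries (0.704 times), while miR-205-5p and miR-21-5p still overlapped. Blood markers (6 names) summed to 22.2 and 22.02 CPM in detached and 13.9, 5.79 and 18.8 CPM in attached libraries, with miR-223-3p and miR-144-3p at 0 in attached replicate 2. The muscle marker miR-1-3p reached 11.6 CPM in detached replicate 1, and miR-133a-3p was at 0 in all 5. The part of these names in the results below was not tested. Attached replicate 2 stood apart from the rest: over 697 names it had Spearman coefficients of 0.812 to 0.857 with the rest, which had 0.927 to 0.961 among themselves. Results are therefore given with and without it.

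Of the 7 names with more than 3 counts in every library, those with the largest ratios between group means were miR-619-5p, miR-5096 and miR-1273g-3p, with means 3.26, 2.95 and 2.58 times as high in detached as in attached cells and no overlap between the groups. miR-619-5p measured 28.1 and 59.3 CPM in detached libraries, against 14.6, 12.6 and 13.0 CPM in attached ones. The attached values were close together (13.4 ± 1.09 CPM, SD, n = 3), and the detached ones differed by a factor of 2.11 (43.7 ± 22.1 CPM, SD, n = 2). miR-5096 measured 20.6 and 28.0 CPM in detached libraries, against 8.23, 9.31 and 7.17 CPM in attached ones. Its lowest detached value was 2.21 times its highest attached value, the widest gap among these 3 names. miR-1273g-3p, the most abundant of the 8 in both detached libraries, measured 74.8 and 112.6 CPM there, against 33.0, 52.0 and 24.1 CPM in attached libraries. Here attached replicate 2 was the highest attached library, and the lowest detached value was 1.44 times its value.

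The log2 fold change, detached over attached, was 1.70 (SE 0.64) for miR-619-5p, 1.56 (SE 0.59) for miR-5096 and 1.36 (SE 0.66) for miR-1273g-3p in edgeR's fit to all tested names. Without attached replicate 2 it was 1.66 (SE 0.57), 1.66 (SE 0.51) and 1.71 (SE 0.54). The ratios of these 3 names to each other overlapped between the groups. The ratio of miR-619-5p to miR-5096 was 1.37 and 2.12 in detached and 1.78, 1.35 and 1.81 in attached libraries. The ratio of miR-1273g-3p to miR-5096 was 3.63 and 4.02 in detached and 4.01, 5.59 and 3.36 in attached libraries.

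**Figure D1:**
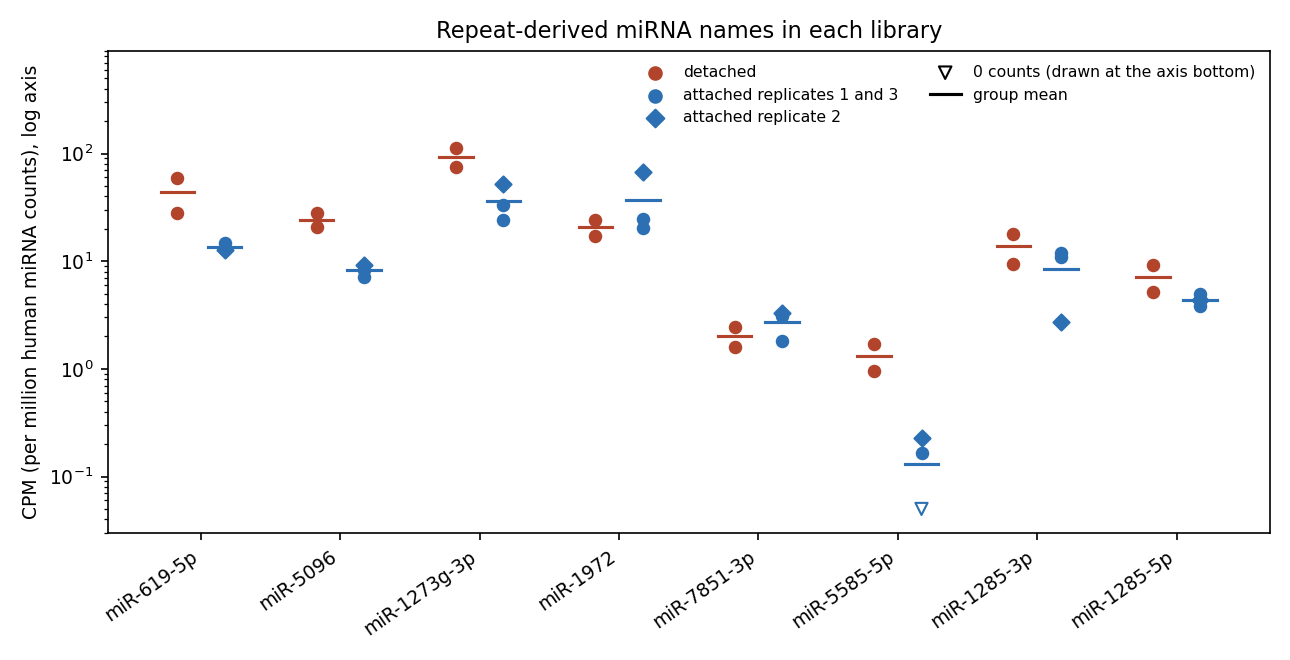
Level of each of the 8 names in each library, in CPM on a log axis; red is detached (2 libraries), blue attached (3 libraries, with replicate 2 as a diamond), horizontal lines are group means and an open triangle marks 0 counts. For miR-619-5p, miR-5096, miR-1273g-3p, miR-5585-5p and miR-1285-5p both detached points lie above all attached points, while miR-1972 and miR-1285-3p have attached replicate 2 far from the other attached libraries, at 67.1 and 2.73 CPM.

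miR-5585-5p was scarce and was seen mainly in detached cells. It had 15 and 18 counts in detached libraries, against 2, 2 and 0 counts in attached ones, or 0.950 and 1.71 CPM against 0.165, 0.227 and 0 CPM. The attached libraries were all at or below 3 counts, so its level there was not measurable at this depth. Over the libraries of each group these were 33 detached and 4 attached counts. It passed the low-count filter through the detached libraries alone, and its log2 fold change of 3.25 (SE 0.97), or 3.75 (SE 0.98) without attached replicate 2, depends on the fit's treatment of values near 0. The other arm of the same hairpin, miR-5585-3p, measured 5.32 and 26.1 CPM in detached libraries, against 6.66, 5.45 and 3.78 CPM in attached ones. Its groups overlapped, since detached replicate 1 stood within the attached range and detached replicate 2 stood 4.91 times above replicate 1.

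The arms of miR-1285 showed smaller differences and did not behave alike in attached replicate 2. miR-1285-5p measured 5.13 and 9.21 CPM in detached libraries, against 4.94, 4.32 and 3.88 CPM in attached ones. The groups did not overlap, but the lowest detached value was only 1.04 times the highest attached one (log2 fold change 0.71, SE 0.60). miR-1285-3p measured 9.43 and 18.0 CPM in detached libraries, against 11.9, 2.73 and 10.9 CPM in attached ones. Detached replicate 1 lay below 2 of the attached libraries, and attached replicate 2 was the lowest of the 5. The log2 fold change of miR-1285-3p was 0.69 (SE 0.78), and 0.27 (SE 0.54) without attached replicate 2. There were 1.84 and 1.96 counts of the 3p arm for each count of the 5p arm in detached libraries, and 2.42, 0.632 and 2.80 in attached ones. Attached replicate 2 was thus the only library of the 5 with more 5p than 3p counts.

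miR-1972 and miR-7851-3p were not higher in detached cells. miR-1972 measured 17.1 and 24.1 CPM in detached libraries, against 20.3, 67.1 and 24.7 CPM in attached ones. Attached replicate 2 was 2.98 times the mean of the other attached libraries, and these 2 lay close to the detached ones. The log2 fold change of miR-1972 was -0.86 (SE 0.77) with all libraries and -0.13 (SE 0.50) without attached replicate 2. miR-7851-3p had between 22 and 32 counts in every library, or 1.58 and 2.47 CPM in detached and 1.81, 3.29 and 3.10 CPM in attached libraries. Its groups overlapped, with a log2 fold change of -0.43 (SE 0.65), and -0.28 (SE 0.57) without attached replicate 2.

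**Figure D2:**
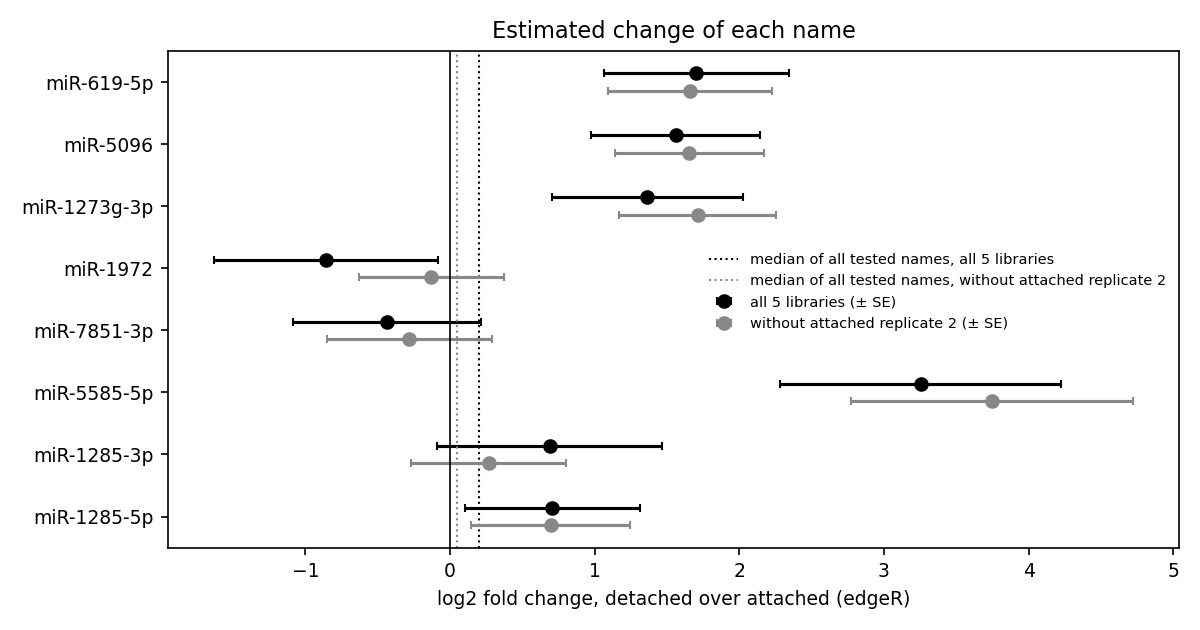
edgeR log2 fold change of each name, detached over attached, with its standard error, from all 5 libraries (black) and without attached replicate 2 (grey); dotted lines are the medians over all tested names. miR-619-5p, miR-5096 and miR-1273g-3p lie between 1.36 and 1.71 in both fits, while miR-1972 moves from -0.86 to -0.13.

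Of the 8 names, 6 had a positive log2 fold change and 2 a negative one (median 1.04). Without attached replicate 2 the split was also 6 and 2 (median 1.18). Over all 697 tested names 58.0% were positive with a median of 0.20, and over the 679 tested without attached replicate 2 51.8% were positive with a median of 0.05. edgeR called 0 of the 8 at adjusted p under 0.05, as it called 0% of all tested names in the higher direction with all libraries (39 were higher at unadjusted p under 0.05, and DESeq2 called 11, none of the 8 among them). Without attached replicate 2 it again called 0 of the 8 higher, beside 1.77% of all tested names. Both detached libraries lay above all attached ones for 5 of the 8 names, beside 18.1% of the names that passed the low-count filter and 13.3% of the 1918 names with any count. The 5 names, like the 6 positive ones, include miR-5585-5p, which passed the filter through the detached libraries alone. They also include miR-1285-5p, whose lowest detached value was 1.04 times its highest attached one. Since the names were chosen with this contrast known, nothing is read from these shares. TMM scaling lowered the median of all tested names from 0.20 to -0.04 and that of the 8 names to 0.73, with no change of sign in any of the 8.

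Summed, the 8 names held 0.0158% and 0.0255% of human miRNA counts in detached and 0.00950%, 0.0152% and 0.00868% in attached libraries. The sums were 157.7 and 255.5 CPM in detached and 95.0, 151.6 and 86.8 CPM in attached libraries, so attached replicate 2 nearly reached detached replicate 1. Its makeup was different, however. miR-1972 made up 44.3% of the sum in attached replicate 2, against 21.4% and 28.5% in the other attached libraries and 10.8% and 9.44% in the detached ones. miR-1273g-3p made up 47.4% and 44.1% in detached and 34.7%, 34.3% and 27.8% in attached libraries. miR-619-5p made up 17.8% and 23.2% in detached and 8.31% to 15.4% in attached libraries.

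**Figure D3:**
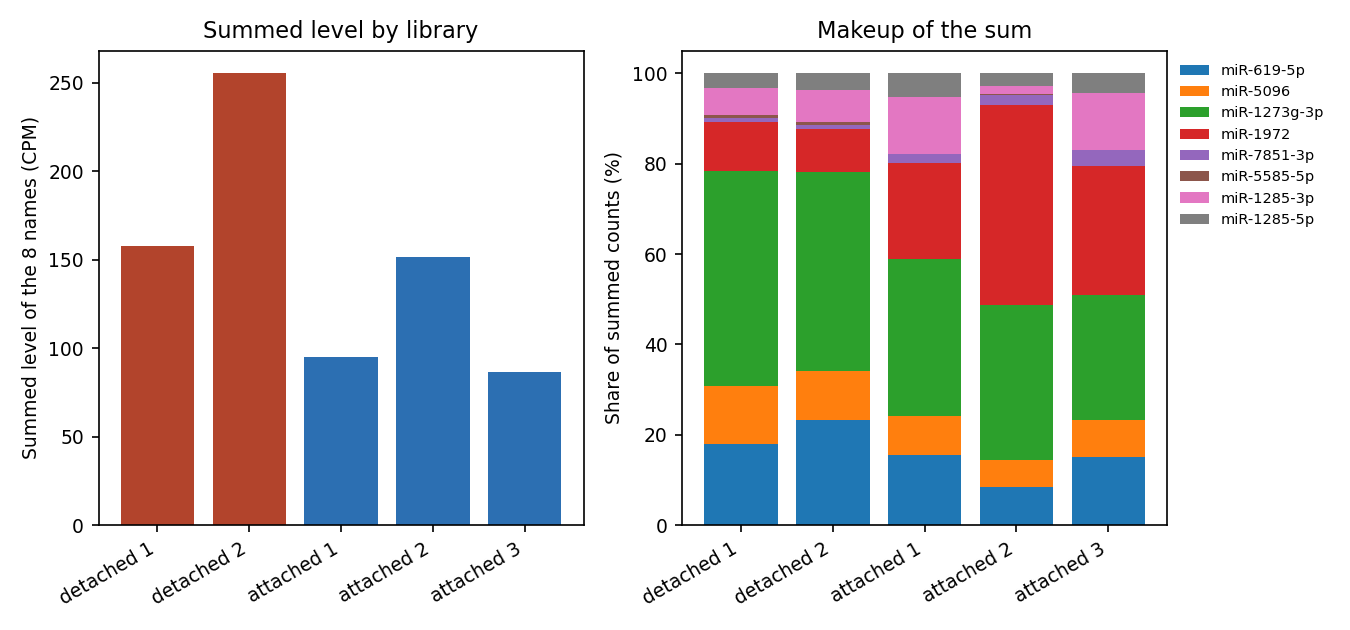
Left, summed CPM of the 8 names in each library (red detached, blue attached); right, the share of each name in that library's summed counts. The sum in attached replicate 2 (151.6 CPM) is close to that in detached replicate 1 (157.7 CPM), but miR-1972 makes up 44.3% of it there and 10.8% in detached replicate 1.

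Attached replicate 2 did not shift the 8 names together. Relative to the mean of attached replicates 1 and 3, its level was 0.913 times for miR-619-5p, 1.21 times for miR-5096 and 0.980 times for miR-1285-5p. It was 1.82 times for miR-1273g-3p, 2.98 times for miR-1972 and 0.239 times for miR-1285-3p. Across 696 tested names 22.8% lay within 1.5-fold in that comparison, 12.4% were more than 2.5-fold higher and 38.5% more than 2.5-fold lower, with a median of 0.583 times. miR-619-5p, miR-5096, miR-1285-5p and miR-7851-3p (1.34 times) were among those within 1.5-fold. miR-1972 was among those more than 2.5-fold higher, and miR-1285-3p among those more than 2.5-fold lower. The ratio of miR-5585-5p (2.76 times) comes from 2 counts in attached replicate 2, against 2 and 0 in replicates 1 and 3. Those counts are too few to measure a level, so nothing is read from it.

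Among fragments of structural RNAs in the same libraries, 5S rRNA names differed between the groups without overlap, while snRNA and snoRNA names overlapped. 5S rRNA names had 159.3 and 337.7 counts per 1000000 human miRNA counts in detached and 52.7, 63.6 and 40.7 in attached libraries. Detached replicate 2 was the highest, as it was for snRNA, snoRNA and piRNA names. It was also the highest for miR-619-5p, miR-5096, miR-1273g-3p, miR-5585-5p and both arms of miR-1285, but not for miR-1972 or miR-7851-3p. snRNA names had 387.8 and 1250 in detached and 334.7, 432.5 and 338.5 in attached libraries, and snoRNA names 1855 and 3309 in detached and 1431, 2775 and 1715 in attached libraries. In these classes detached replicate 1 lay within the attached range. Whether these fragments and the 8 names differ for a shared reason was not tested. In bulk libraries scaled to the human miRNA total, more of a name per cell, more cells that hold it and less of other miRNAs cannot be told apart.

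**Figure D4:**
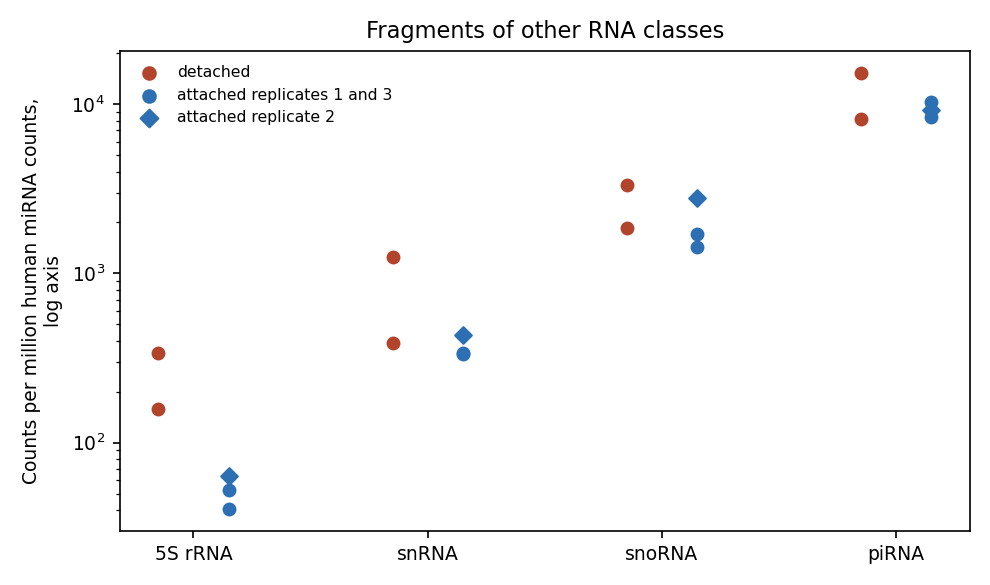
Counts of 5S rRNA, snRNA, snoRNA and piRNA names per 1000000 human miRNA counts in each library, on a log axis; red is detached, blue attached, with attached replicate 2 as a diamond. 5S rRNA names lie at 159.3 and 337.7 in detached and at 40.7 to 63.6 in attached libraries, while the other classes overlap.

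Other names linked to Alu sequence were read from a list of 20, of which 18 had any count and 9 passed the filter. edgeR called 0 of the 9 in either direction, with all libraries and for the 8 that passed without attached replicate 2. With all libraries 6 were positive and 3 negative, with a median log2 fold change of 0.68, and 0.41 without attached replicate 2. In miR-1273e, miR-1273d and miR-1273h-5p attached replicate 2 lay between the detached libraries, so the groups overlapped. Both detached libraries lay above attached replicates 1 and 3, a split whose share over all names is not given here. The other miR-1273 names of the list overlapped with and without attached replicate 2. These were miR-1273a, miR-1273c, miR-1273f, miR-1273g-5p and miR-1273h-3p, with at most 7 counts in any library. miR-1273e measured 1.90 and 4.84 CPM in detached libraries, against 0.741, 3.29 and 0.581 CPM in attached ones, and miR-1273d measured 1.01 and 2.28 CPM against 0.658, 1.36 and 0.581 CPM. miR-1273h-5p measured 0.760 and 1.80 CPM in detached and 0.411, 1.02 and 0 CPM in attached libraries. The values of miR-1273e, miR-1273d and miR-1273h-5p come from 0 to 51 counts a library.

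The more abundant names of the list overlapped between the groups. miR-1303 measured 34.9 and 69.9 CPM in detached and 56.2, 20.2 and 29.8 CPM in attached libraries. miR-1268b measured 19.0 and 47.8 CPM in detached and 42.0, 11.9 and 58.5 CPM in attached libraries. In both, attached replicate 2 was the lowest library. miR-3929 measured 5.13 and 3.70 CPM in detached and 2.30, 9.09 and 8.23 CPM in attached libraries, and miR-1254 1.52 and 3.80 CPM in detached and 2.55, 4.09 and 1.94 CPM in attached libraries. miR-5095 measured 1.27 and 1.14 CPM in detached and 1.07, 0.568 and 0.581 CPM in attached libraries, from at most 20 counts a library, so its groups did not overlap but lay close. miR-1273a, miR-1273c, miR-1273f, miR-4459 and miR-5684 had at most 8 counts in any library. miR-619-3p, the other arm of the miR-619 hairpin, and miR-1268a had 0 counts in all 5. The 18 bases of miR-1268a are also the first 18 of the 20 bases of miR-1268b. Absence of miR-1268a and assignment of its reads to miR-1268b therefore cannot be told apart. miR-619-5p had 444 and 625 counts in detached and 178, 111 and 134 in attached libraries, and these reads were not assigned to a locus here. The miR-619-3p sequence matched 14 of 24 bases of RN7SL1, which 33.4% of names equalled or passed.

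**Figure D5:**
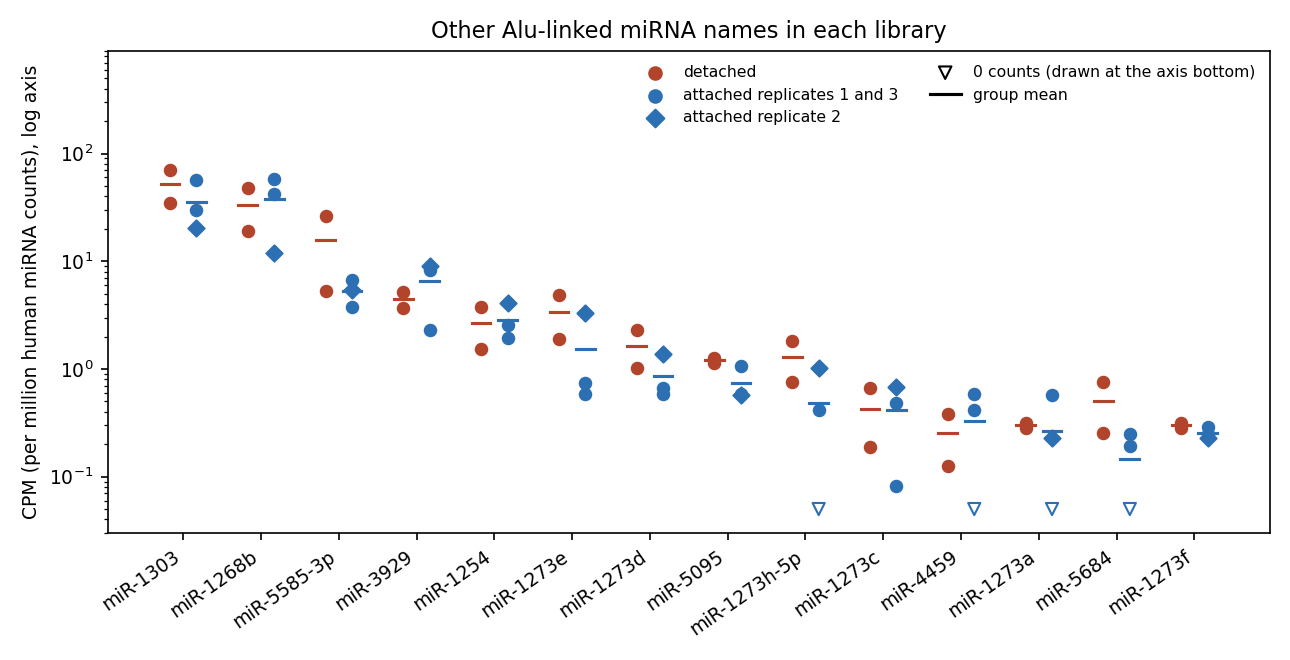
Level in CPM, on a log axis, of the other Alu-linked names with at least 15 counts in all; colours and symbols mark detached (red), attached (blue) and attached replicate 2 (diamond), lines are group means and an open triangle marks 0 counts. miR-1273e and miR-1273d lie higher in both detached libraries than in attached replicates 1 and 3 (0.581 to 0.741 CPM). Attached replicate 2, at 3.29 and 1.36 CPM, lies between the detached points, so the groups overlap.

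The summed level of the 8 names was compared in shape with 689 other tested names by the root-mean-square difference of mean-centred log2(CPM + 0.5) over the 5 libraries. The nearest was miR-1273d, at 0.143 on the log2 scale, followed by miR-3146 (0.207), miR-6723-5p (0.234), miR-7641 (0.246) and miR-200a-5p (0.249). miR-1273d (0.581 to 2.28 CPM) and miR-3146 (0.388 to 1.99 CPM) lay near the added 0.5 CPM. That offset narrows their log2 range more than that of the sum, so their distances depend on it. miR-7641 measured 3.74 and 9.11 CPM in detached and 2.55, 5.45 and 1.74 CPM in attached libraries, and miR-6723-5p 11.3 and 15.8 CPM in detached and 8.31, 8.52 and 6.68 CPM in attached libraries. Among the 8 names themselves miR-1273g-3p was the nearest to the sum, at 0.271, and miR-1285-3p the farthest, at 0.958.

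The authors' deposited table, which compares the same libraries and so is no separate evidence, lists log2 fold changes of 1.20 for miR-619-5p, 1.12 for miR-5096 and 0.91 for miR-1273g-3p. For miR-5585-5p it lists 2.07 and for miR-1972 -1.06. Counts there are divided by size factors, not scaled to the human miRNA total, so sizes of change are not compared here. The authors' deposited table lists 0.31 for each arm of miR-1285 and -0.65 for miR-7851-3p, so the signs are those found here for all 8 names.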

How the data were processed

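Small RNA libraries of MCF10A cells were used, 2 detached and 3 attached. In the deposited tables each of 49965 named small RNAs has a whole-number read count, and 5 summary rows total 0. The submitters' processing notes name hg38 and DESeq2 without role or version, and no aligner or counter is named in the sources used here. A further table deposited by the authors holds log2 fold changes, p-values, a test score and, as signal, counts divided by size factors. From that signal 100% of values in 44736 rows came out as whole reads (tolerance 0.01), all equal to the raw counts. A fit to these reads (687 tested names) called 0 names in either direction. Since the counts are the same, it repeats the main fit and is no separate evidence.

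Human miRNA rows (2565, of which 15 join several names) went into a two-sided quasi-likelihood F test (edgeR 4.0.16, R 4.3.3), with the plain total of these rows as library size. filterByExpr (minimum count 10, minimum total 15) kept 697, all 8 listed names included. Calls are Benjamini-Hochberg adjusted p under 0.05 over all tested names. Standard errors are the absolute log2 fold change over the square root of F. Without attached replicate 2 the adjusted p may be too small, since it was left out for deviating in these data.

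The 8 names, the lists and the named-gene rule (all 8, other Alu-linked names with 15 or more counts, the 4 most abundant names of an older-element list, 5 nearest profiles) were chosen with earlier results of these data known. Alternatives were DESeq2 1.42.0, limma-voom (limma 3.58.1), other scalings and filters, all named rows, a replicate block and leaving out each library. Sequences come from RefSeq (GRCh38.p14), hairpins and transcripts from GENCODE 29. No library was a duplicate of another: chi-square over its degrees of freedom was 788 to 4784 between replicates. The floor of 3 counts covers counting error only. Some sequence matches are not reported here.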

Additional observations from a re-analysis of the deposited data

How the results depend on the processing

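The split of 6 positive and 2 negative log2 fold changes among the 8 names was the same in every alternative that tested all of them, and 5 of 7 were positive without attached replicate 1, where miR-5585-5p failed the filter. With 100 CPM required in 2 libraries none of the 8 was tested. Over 14 alternatives miR-619-5p ran from 1.07 (without detached replicate 2) to 2.14, miR-5096 from 1.15 to 1.76, miR-1273g-3p from 0.87 to 1.71 and miR-1972 from -1.41 to -0.13. The 14 include the fit to the recovered reads, which repeats the main fit on the same counts. Over all tested names the number called higher was 0 of 697 in the edgeR fit and 11 of 697 with DESeq2 (1 lower). It was 15 of 1918 without the low-count filter (5 lower). When each attached library was left out it was 0 to 12 (0 lower), the 12 being of 679 without attached replicate 2. TMM factors together with leaving out attached replicate 2, chosen after seeing the data, gave 22 higher and 1 lower of 679 tested. That was the only setting of those run that called 1 of the 8, miR-5585-5p (log2 fold change 3.60). The call rests on 2 attached and 33 detached counts. Since this name passed the filter through the detached libraries alone, nothing is read from the call. Without a detached library, the other was assumed to vary like the attached ones. With the replicate block 0 names were called higher and 0 lower. Deviations of same-numbered libraries from their group means correlated at -0.24 and -0.22. With 2 detached libraries their deviations mirror each other, so these values cannot show whether the libraries are pairs. The numbers were not taken as pairs. Below about 3 counts, or 0.190 to 0.341 CPM, levels were not measurable.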

Other observations

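Conserved miRNAs from older transposable elements (12 names, 11 tested) are an abundant counterpart of the 8 names, with 8 positive and 3 negative log2 fold changes and 0 called by edgeR. Their median was 0.46, and 0.09 without attached replicate 2. miR-151a-3p, from an L2 element, measured 743.6 and 645.3 CPM in detached and 792.4, 904.3 and 793.1 CPM in attached libraries, and its other arm miR-151a-5p 695.5 and 1674 CPM in detached and 731.9, 90.7 and 585.9 CPM in attached libraries. As with miR-1285, only 1 arm of miR-151a was low in attached replicate 2. miR-28-5p measured 270.7 and 656.6 CPM in detached and 518.2, 346.6 and 482.3 CPM in attached libraries, and miR-652-3p 512.1 and 761.2 CPM in detached and 346.0, 132.0 and 600.4 CPM in attached libraries. miR-652-5p, named after its values were seen, measured 10.0 and 46.2 CPM in detached and 3.04, 2.73 and 8.04 CPM in attached libraries.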
